A study of Mus musculus with 12 samples.

Results

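The open-chromatin regions lying nearest to genes of WNT ligands, receptors and antagonists were examined. A region was a stretch of merged, overlapping ATAC-seq peaks, and it was counted here when its nearest protein-coding gene, at most 100 kb away, was a Wnt, Fzd, Sfrp, Dkk or Rspo gene or Lrp5, Lrp6, Axin2, Lgr4, Trabd2b or Prickle2. The rule took 534 of 153346 regions, and each of the 47 genes it names had at least 1 region. By role, 168 regions lay at 19 ligand genes (Wnt), 48 at 4 agonist genes (Rspo), 113 at 13 receptor genes (Fzd, Lrp5, Lrp6, Lgr4), 152 at 9 antagonist genes (Sfrp, Dkk, Trabd2b) and 53 at Axin2 and Prickle2, the genes of feedback and polarity. Trabd2b with 59 regions and Prickle2 with 41 held the most, and both are named in the rule because earlier results of these data showed them, so each main count is also given without them.

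ATAC-seq marks open chromatin with a transposase that inserts sequencing adapters into accessible DNA. The cells were mouse cells labelled MSCLCs, and the series title ties them to bone mesenchymal stem cells, IGF-1, YAP1 and EWS::FLI1, an oncogenic fusion found in Ewing sarcoma. By genotype label there were 5 groups over 12 libraries, with 4 libraries each of Wt and EF, 2 of EF_IGF1, and 1 each of Wt_IGF1 and EF_IGF1_xeno. The design text names WT, EFPrx1, ha-EFPrx1 and hr-EFPrx1 cells without saying which label each stands for. The sources used here do not give the IGF1 dose and duration, the promoter that drives the fusion, the host behind the xeno label or the age of the animals. The Wt libraries carry the line names WT_1, WT_2, BM and S_203, and Wt_IGF1 carries BM. All EF, EF_IGF1 and EF_IGF1_xeno libraries come from the line names S_220 and S_221, so the 4 EF libraries stand for 2 lines. Flowcell BSF_0654 carried Wt replicates 1 and 2 and EF replicates 1 and 2, and flowcell BSF_1013 the remaining 8 libraries. No label states whether replicates are separate animals or cultures, so the p-values below measure the spread between these libraries.

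WNT proteins are secreted, lipid-modified ligands that bind Frizzled receptors together with the co-receptors Lrp5 and Lrp6. In the canonical branch this stabilises beta-catenin, which acts with TCF/LEF factors on targets such as Axin2, a negative feedback gene; a separate branch controls cell polarity, in which Prickle proteins act. R-spondins strengthen the signal through Lgr4, whereas Sfrp proteins bind the ligands, Dkk1 and Dkk2 bind the co-receptors, and Trabd2b, also called Tiki2, is a membrane protease that cleaves WNT proteins. In bone marrow mesenchymal cells WNT signalling is known for favouring the osteoblast over the adipocyte fate.

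RefSeq start sites of GRCm38.p6 were at hand for 30 of the 47 genes, as 36 windows of 250 bases before to 50 after a start. A peak overlapped 23 of these windows in at least 1 library, 4 in all 12 libraries and 13 in none. Those called in all 12 were the starts of Fzd4, Fzd5, Fzd7 and Lgr4. The 250 bases before the start are shown for the genes whose start-site calls differed most between the groups (Wnt1, Fzd9, Prickle2 and Wnt2b, the last pair tied with starts of Wnt5b) and for Axin2, 5′ to 3′ on the gene's strand, with each CpG dinucleotide in capitals.
Wnt1, chr15:98789607-98789856, plus strand: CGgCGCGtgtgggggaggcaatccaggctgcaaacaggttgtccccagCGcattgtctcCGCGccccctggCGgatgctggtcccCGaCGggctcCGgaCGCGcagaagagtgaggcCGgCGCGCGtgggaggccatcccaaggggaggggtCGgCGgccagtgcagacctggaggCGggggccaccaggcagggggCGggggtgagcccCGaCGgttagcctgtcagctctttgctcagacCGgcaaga
Fzd9, chr5:135251048-135251297, minus strand: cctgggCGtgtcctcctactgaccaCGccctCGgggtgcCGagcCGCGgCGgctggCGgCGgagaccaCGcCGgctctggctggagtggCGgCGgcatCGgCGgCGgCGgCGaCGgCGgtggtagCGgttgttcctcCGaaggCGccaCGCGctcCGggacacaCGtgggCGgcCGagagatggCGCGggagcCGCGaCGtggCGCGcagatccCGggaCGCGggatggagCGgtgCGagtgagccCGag
Prickle2, chr6:92706185-92706434, minus strand: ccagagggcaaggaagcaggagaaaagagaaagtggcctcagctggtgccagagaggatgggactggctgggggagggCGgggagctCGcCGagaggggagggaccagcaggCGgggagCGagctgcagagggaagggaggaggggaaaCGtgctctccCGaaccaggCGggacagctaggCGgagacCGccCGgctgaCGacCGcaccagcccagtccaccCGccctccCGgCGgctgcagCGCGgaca
Wnt2b, chr3:104961710-104961959, minus strand: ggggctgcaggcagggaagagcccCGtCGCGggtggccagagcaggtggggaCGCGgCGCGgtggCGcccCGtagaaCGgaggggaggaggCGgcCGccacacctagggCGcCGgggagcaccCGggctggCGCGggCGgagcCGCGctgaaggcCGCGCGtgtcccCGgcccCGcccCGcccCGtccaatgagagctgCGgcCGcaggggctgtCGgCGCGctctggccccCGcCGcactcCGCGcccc
Axin2, chr11:108920099-108920348, plus strand: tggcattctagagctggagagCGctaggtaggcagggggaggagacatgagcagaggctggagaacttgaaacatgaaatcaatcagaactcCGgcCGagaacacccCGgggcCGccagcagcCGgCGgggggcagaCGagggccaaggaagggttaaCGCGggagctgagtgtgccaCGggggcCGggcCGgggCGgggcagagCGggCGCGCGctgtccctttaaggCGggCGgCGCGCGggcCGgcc

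These 5 stretches have a G and C content of 69.2% (Axin2) to 80.8% (Wnt2b). They hold 23 CpG in Wnt1, 42 in Fzd9, 18 in Prickle2, 36 in Wnt2b and 24 in Axin2. Over the same 250 bases before each of the 36 starts, the WNT starts had a median of 21 CpG (4 to 48) and all 32619 promoters of the RefSeq table a median of 6 (0 to 56). The median was 21 in the 4 starts called in all 12 libraries, 20 in the 19 called in some and 22 in the 13 called in none, so CpG number did not separate called from uncalled starts. TCF/LEF words (CTTTGAA or CTTTGAT, either strand) were in 4 of 36 WNT windows (11.1%) and in 8.68% of all promoters. These 4 were a start of Prickle2 other than the printed one, and starts of Wnt5b, Wnt11 and Dkk1. The TEAD word GGAATG, searched because TEAD factors are partners of YAP1, was in the windows of Lgr4 and Wnt5b (5.56%) and in 14.6% of all. The tandem ETS core GGAAGGAA was in 0 of 36 and in 3.69% of all. None of the 3 motifs was found in the printed stretches.

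The start of Prickle2 printed above was overlapped by a peak with a fold over local background, the authors' own value for a peak, of 13.1 in Wt replicate 3, 11.8 in Wt replicate 4 and 13.5 in Wt_IGF1. In EF replicates 1 to 4 the fold was 11.1, 6.19, 15.2 and 14.1. No peak was called there in Wt replicates 1 and 2, in either EF_IGF1 library or in EF_IGF1_xeno. Hence all 4 EF libraries and none of the 3 libraries that combine EF with IGF1 had this start called. The other starts of Prickle2 did not share this order. The start at chr6:92481392 was called in EF replicates 1, 3 and 4, EF_IGF1 replicate 1 and EF_IGF1_xeno. The start at chr6:92534861 was called in EF replicate 3 and EF_IGF1 replicate 1. Both were also called in Wt replicates 3 and 4 and Wt_IGF1. The start at chr6:92567366 was called in no library.

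Fzd9, a Frizzled receptor, had its start called in Wt replicates 2 and 4 (folds 10.9 and 7.53), Wt_IGF1 (8.44) and EF replicates 1, 3 and 4 (8.33, 6.56 and 5.99), and again in none of the 3 libraries of EF with IGF1. The start of Wnt1, a canonical ligand, showed another order. It was called in Wt replicates 2 and 4 (5.24 and 4.70), Wt_IGF1 (6.31) and both EF_IGF1 libraries (6.92 and 6.55), and in no EF library. Wnt2b was called at its start in Wt replicates 2 and 4 (5.61 and 4.71) and Wt_IGF1 (4.97) and in no EF, EF_IGF1 or EF_IGF1_xeno library. The start of Axin2 was called in 11 libraries, all but Wt replicate 1, with folds of 5.21 to 11.2, and so did not follow the groups.

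Libraries differed in how many regions were called, from 7464 in Wt replicate 1 to 79524 in Wt_IGF1, with 25562 in EF replicate 2 and 40945 to 66954 in the other 9. Read totals are unknown. Mesenchymal marker genes (15) had a called gene end in 9 to 11 of 15 cases in 10 libraries, in 7 in Wt replicate 2 and in 0 in Wt replicate 1. Of the 107 regions at 15 blood-cell marker genes, 78.5% were called in Wt replicate 2 and 7.48% to 32.7% in the other 11. Wt replicates 1 and 2 thus stand apart, the first by its short list and the second by blood-cell regions, and their part in the comparisons of EF with Wt is shown by values without them. ATAC-seq of bulk cells cannot tell fewer cells with an open region from a less open region in each cell.

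The WNT regions lay inside their gene in 263 cases (49.3%) and within 1 kb of a gene end in 51 (9.55%). Over all 136540 regions with a gene within 100 kb these shares were 62.1% and 13.6%, and over all regions 55.3% and 12.1%. They had a median width of 421 bp (412 bp over all). Only 7 of them (1.31%, against 3.77% of all regions) were called in all 12 libraries, and 155 (29.0%, against 36.3%) in 1. The 7 were the starts of Fzd4, Fzd5, Fzd7 and Lgr4, and distant regions at Wnt11 (18447 bp from the gene), Wnt7b (52397 bp) and Axin2 (60746 bp). The distant region of Axin2, chr11:109011529-109012137, had folds of 17.1 to 22.7 in the 12 libraries.

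Per 10000 called regions, a scale used because the lists differ in length, the WNT regions numbered 10.7, 20.1, 36.0 and 38.2 in Wt replicates 1 to 4 and 36.6 in Wt_IGF1. They numbered 33.9, 30.1, 36.1 and 38.0 in EF replicates 1 to 4, 34.9 and 33.3 in EF_IGF1 and 34.7 in EF_IGF1_xeno. Apart from Wt replicates 1 and 2, which were lower, all libraries lay within 30.1 to 38.2, so the sum over the family hardly separated the groups and the roles are given one by one.

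Ligand regions per 10000 called regions numbered 4.02, 7.82, 10.7 and 12.2 in Wt replicates 1 to 4 and 10.6 in Wt_IGF1. They numbered 11.2, 12.1, 11.7 and 14.6 in EF, 16.1 and 15.3 in EF_IGF1 and 17.6 in EF_IGF1_xeno. The 3 libraries of EF with IGF1 lay above all 9 others, but the mean difference between EF_IGF1 and EF on flowcell BSF_1013 (15.7 against 13.2, a difference of 2.57) was 0.0377 with the 20000 highest peaks of each list. Regions at 6 neural and 7 epithelial marker genes, in percents not scaled to list length, also differed among the EF cells. The 27 neural regions were called at 44.4% in each of these 3 libraries and at 18.5% to 40.7% in EF. The 59 epithelial regions were called at 47.5%, 45.8% and 39.0% and at 16.9% to 40.7%. Wt_IGF1, the library with the longest list, had 48.1% of the neural and 40.7% of the epithelial regions called. Gene ends were called in EF and in the 3 libraries of EF with IGF1 at 0 to 2 genes of each list. The part of these marker regions in the ligand result was not tested. Antagonist regions had the reverse order among the EF cells, with 6.62, 7.82, 8.33 and 10.6 in EF, 5.14 and 4.95 in EF_IGF1 and 4.88 in EF_IGF1_xeno, against 0, 4.42, 11.1 and 9.26 in Wt and 10.6 in Wt_IGF1. The mean difference of EF_IGF1 minus EF on flowcell BSF_1013 was -4.43, with -2.06 for regions within 10 kb of a gene and -2.75 for the 20000 highest peaks. Without Trabd2b, the other 8 antagonists numbered 3.61, 2.35, 3.97 and 4.62 in EF and 3.90, 3.30 and 2.69 in EF_IGF1 and EF_IGF1_xeno, which overlap. In Wt replicates 3 and 4 and Wt_IGF1 these 8 genes held 6.83, 6.57 and 6.41, above the 4 EF libraries, whereas Wt replicates 1 and 2 had 0 and 3.40.

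**Figure D1:**
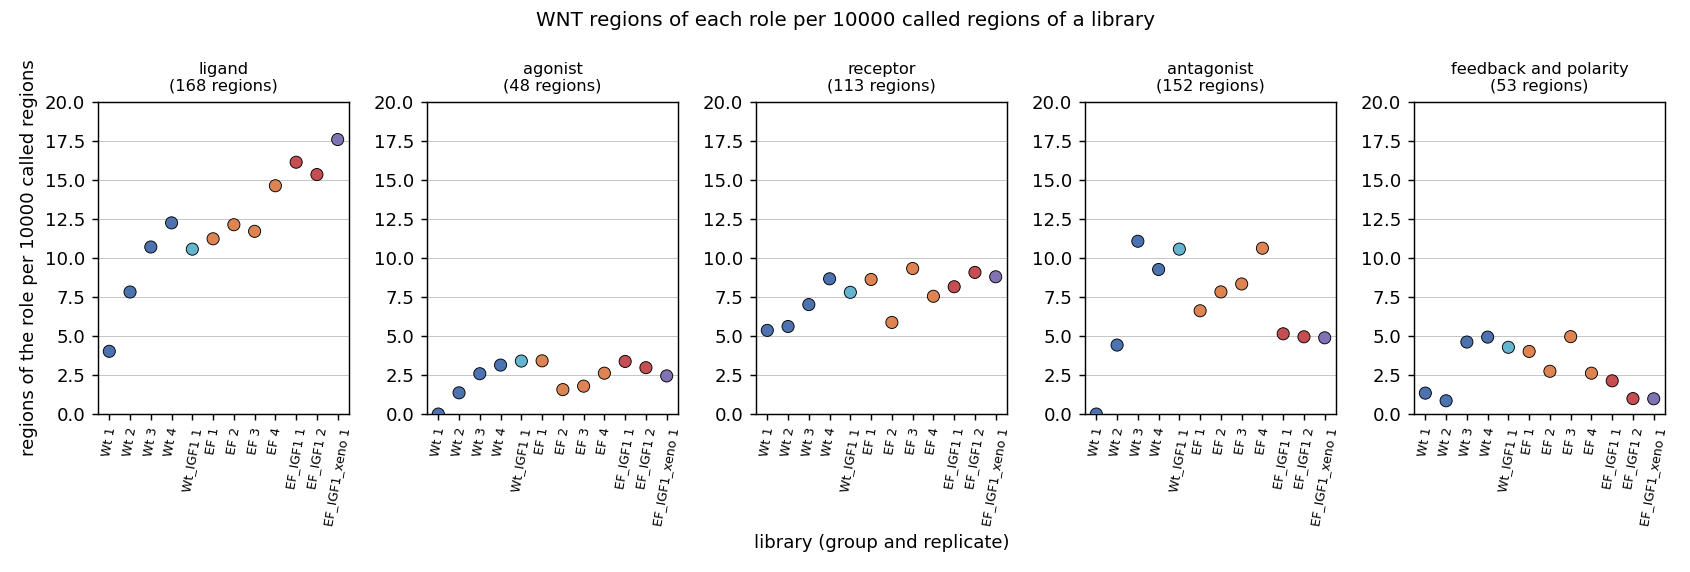
Regions at WNT genes of each role per 10000 called regions of a library (y axis), by library (x axis, group and replicate). Each point is 1 library, coloured by group; ligand points of EF_IGF1 and EF_IGF1_xeno (15.3 to 17.6) lie above all others, and their antagonist points (4.88 to 5.14) below the 4 EF points.

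Receptor regions lay between 5.36 and 9.32 per 10000 in all 12 libraries with no order by group. Agonist regions numbered 0, 1.36, 2.58 and 3.14 in Wt, 3.40 in Wt_IGF1, 3.41, 1.56, 1.79 and 2.62 in EF, 3.37 and 2.97 in EF_IGF1 and 2.44 in EF_IGF1_xeno, which overlap. At Axin2 and Prickle2 there were 1.34, 0.85, 4.61 and 4.93 in Wt, 4.28 in Wt_IGF1, 4.01, 2.74, 4.96 and 2.62 in EF, and 2.13, 0.99 and 0.977 in EF_IGF1 and EF_IGF1_xeno. These last 3 were below every EF library. Prickle2 alone had 3.21, 1.96, 3.97 and 2.16 in EF and 1.42, 0 and 0.244 in EF_IGF1 and EF_IGF1_xeno. Axin2 alone overlapped, with 0.802, 0.782, 0.992 and 0.462 in EF and 0.709, 0.990 and 0.733 in EF_IGF1 and EF_IGF1_xeno. The lower pooled values thus rest on Prickle2, a gene put in the rule because of earlier results of these data.

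**Figure D2:**
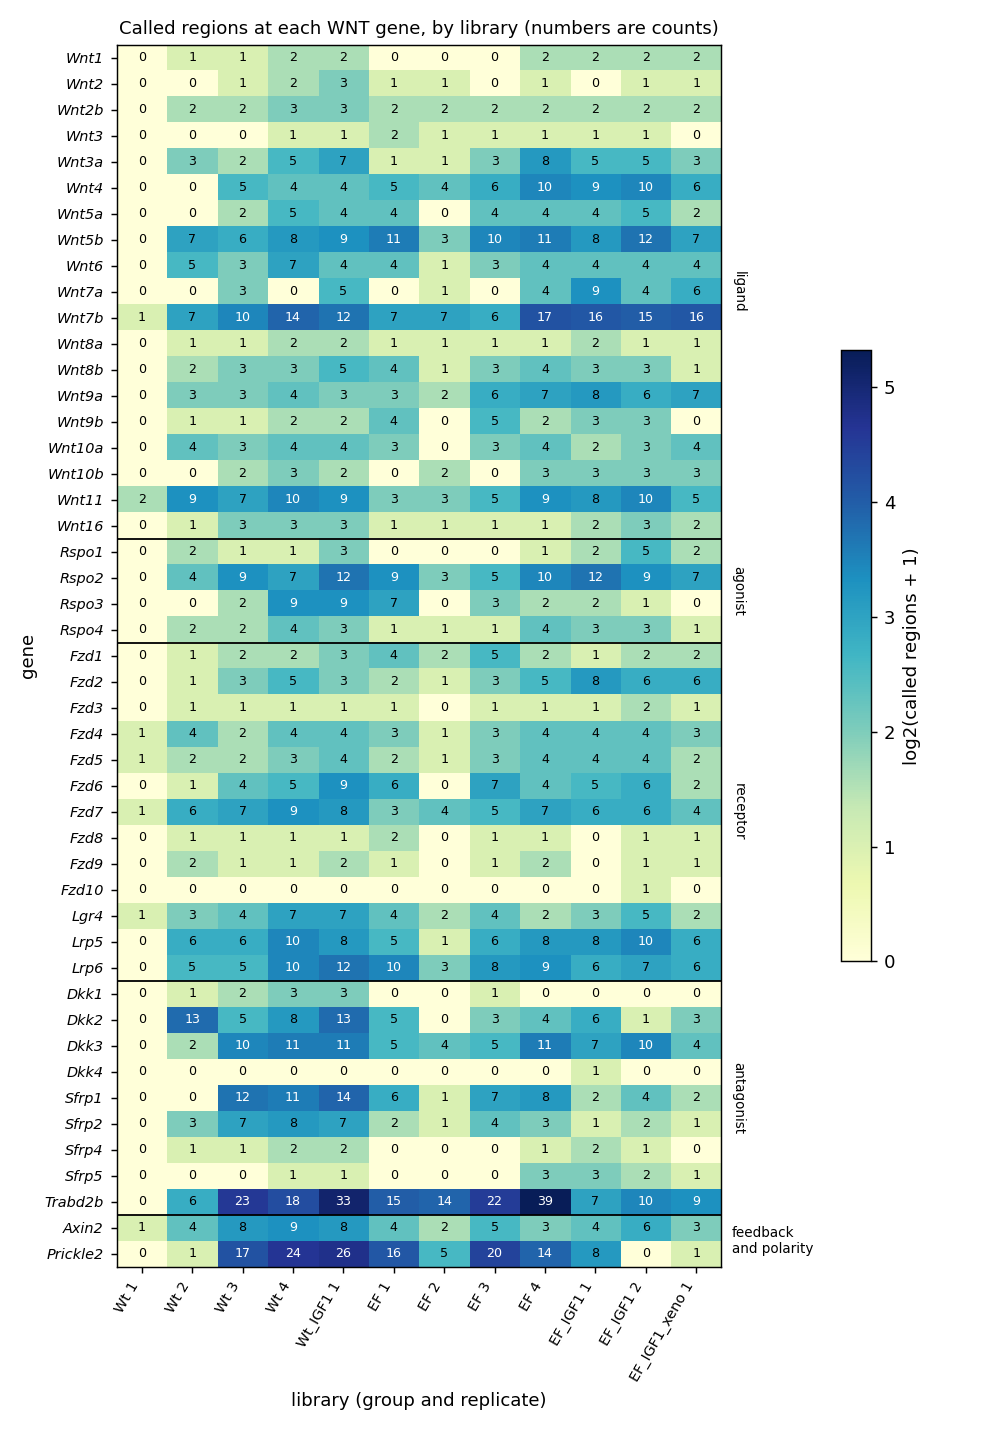
Number of called regions at each of the 47 WNT genes (rows, ordered by role) in each library (columns); the colour is log2 of the number plus 1. Trabd2b has 14 to 39 regions in EF and 7 to 10 in the EF_IGF1 and EF_IGF1_xeno libraries, and Prickle2 5 to 20 and 0 to 8.

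EF was set against Wt to ask which WNT regions go with the EF genotype. By the strict rule, called in at least 3 of 4 libraries of one group and in 0 of 4 of the other, 6 WNT regions were gained in EF (1.12% of 534, against 1.19% of all regions) and 5 were lost (0.936%, against 0.938% of all). Both shares are near the background. The gained regions were 2 at Trabd2b, 2 at Prickle2, and 1 each at the ligands Wnt9b and Wnt3a. The lost regions were 1 each at Lrp5, Lrp6, Sfrp2, Dkk2 and Prickle2. Without Trabd2b and Prickle2, 2 were gained (0.461%) and 4 lost (0.922%) of 434. A library was also left out, with the rule of at least 3 calls against 0 kept, so that the shortened group needed all 3. Then 0 were gained without EF replicate 1, 3 or 4 and 23 without Wt replicate 4, and 0 were lost without Wt replicate 2, 3 or 4. Shares over all regions were not computed with a library left out.

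The gained region with the highest −log10 p (54.7) lay inside Trabd2b, at chr4:114515208-114515860. Its fold was 6.14, 5.79 and 13.2 in EF replicates 1, 3 and 4, and no other library had it called, EF_IGF1 and EF_IGF1_xeno included. At Prickle2, chr6:92521323-92522020 had folds of 7.14, 6.22 and 10.3 in the same EF replicates and 7.10 in EF_IGF1 replicate 1. The region inside Wnt9b, chr11:103758680-103759085, was called in EF replicates 1, 3 and 4 (8.77, 7.95 and 5.13) and in both EF_IGF1 libraries (6.64 and 7.29). Among the lost regions, chr6:134556173-134556646 inside Lrp6 was called in Wt replicates 2, 3 and 4 (8.08, 4.37 and 5.69) and nowhere else. The one at Sfrp2, chr3:83789583-83790495, was called in Wt replicates 2, 3 and 4 (5.40, 6.40 and 9) and in Wt_IGF1 (6.15).

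Within flowcell BSF_1013, where Wt replicates 3 and 4 face EF replicates 3 and 4 under a rule of 2 of 2 against 0 of 2, 16 WNT regions were gained (3% against 1.91% of all) and 31 lost (5.81% against 4.57%). Without Trabd2b and Prickle2, 8 were gained (1.84%) and 22 lost (5.07%). The gained regions lay at Trabd2b (6), Prickle2 (2) and Wnt3a (2), with 1 each at Wnt8b, Wnt9a, Wnt9b, Wnt11, Fzd5 and Lrp6. The lost regions lay at Prickle2 (6), Trabd2b, Sfrp1 and Sfrp2 (3 each), Axin2, Lrp5, Lrp6 and Wnt16 (2 each), and Lgr4, Dkk1, Dkk2, Wnt5a, Wnt10a, Wnt11, Rspo3 and Fzd7 (1 each). Antagonists made up 11 of the 31 lost regions and 6 of the 16 gained ones, and all of these 6 were at Trabd2b. On flowcell BSF_0654, with the short list of Wt replicate 1 and the blood-cell regions of Wt replicate 2, 26 WNT regions were gained (4.87% against 4.09%) and 0 lost (against 0.49%). Without Trabd2b and Prickle2, 15 were gained there (3.46%), below the share of all regions. Setting the 4 EF libraries against Wt replicates 3 and 4 alone gave 7 gained (1.31% against 1.49%) and 30 lost (5.62% against 4.06%).

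Some of these lost regions had high folds in the Wt libraries of this flowcell. Near Wnt5a, a ligand of the non-canonical branch, chr14:28532683-28533517 had folds of 12.7 and 18.8 in Wt replicates 3 and 4, 16.0 in Wt_IGF1 and 8.5 in EF_IGF1 replicate 2, and was not called in the 4 EF libraries. A region 54246 bp from Dkk1, chr19:30490854-30491630, had folds of 16.0, 14.9 and 11.9 in Wt replicates 3 and 4 and Wt_IGF1 and was called in no other library. Its gene, which encodes a secreted blocker of the co-receptors, had 1, 2, 3 and 3 regions called in Wt replicates 2 to 4 and Wt_IGF1, 1 in EF replicate 3, and 0 in the other 7 libraries. At Axin2, chr11:108898029-108898462 was called in Wt replicates 3 and 4 (10 and 15.2), Wt_IGF1 (8.84) and EF_IGF1 replicate 2 (6.07). At Sfrp1, chr8:23511324-23512178 was called in the first 3 of these libraries only (6.13, 6.44 and 6.51).

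No gene passed the test across all genes. The number of called regions at a gene per 10000 called regions was compared between 4 EF and 4 Wt libraries by an exact two-sided permutation test over 70 orders, and 0 of 17833 genes had an adjusted p under 0.05 (Benjamini-Hochberg, smallest adjusted p = 0.735). At an unadjusted p under 0.05 there were 693 genes (3.89%) and 3 of the 47 WNT genes: Wnt3, Wnt4 and Wnt9a, all ligands. Each of the 3 had p = 0.0286 in the exact permutation test, the smallest that 4 against 4 allows. When the exact permutation was kept within flowcell, each had p = 0.0556, the smallest of 36 orders. By Fisher's exact test on the calls of single regions, 0 of 153346 regions passed the adjustment, 344 (0.224%) had an unadjusted p under 0.05 and 0 of these were WNT regions. Fisher's exact test had the same smallest p as the exact permutation test. With that smallest p, no small set of genes or regions could pass the adjustment. The adjusted counts of 0 therefore do not show that the groups are alike.

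Wnt4, a ligand of kidney and gonad development, had 0, 0, 0.922 and 0.597 regions per 10000 in Wt replicates 1 to 4 and 1.00, 1.56, 1.19 and 1.54 in EF. On this scale the groups did not overlap. The mean was 1.32 ± 0.274 (SD, n = 4) in EF against 0.380 ± 0.458 (SD, n = 4) in Wt (adjusted p = 0.735 by the exact permutation test). The unscaled counts overlapped, with 0, 0, 5 and 4 in Wt and 5, 4, 6 and 10 in EF. Wnt4 had 1.60 and 1.65 in EF_IGF1, 1.47 in EF_IGF1_xeno and 0.503 in Wt_IGF1. Wnt9a, the neighbour of Wnt3a on chromosome 11, averaged 0.913 ± 0.270 in EF and 0.415 ± 0.279 in Wt, and Wnt3, a canonical ligand with 2 regions, 0.286 ± 0.128 and 0.0373 ± 0.0747 (all SD, n = 4). Without Wt replicates 1 and 2 the Wnt9a values of Wt were 0.553 and 0.597, still below the lowest EF value of 0.601. Its unscaled counts overlapped, with 3 and 4 in Wt replicates 3 and 4 and 3, 2, 6 and 7 in EF. Trabd2b averaged 4.71 ± 1.33 (SD, n = 4) in EF against 1.99 ± 1.87 (SD, n = 4) in Wt, with an unadjusted p = 0.0571 and an adjusted p = 0.830 by the exact permutation test. Its values overlapped, since Wt replicate 3 had 4.24 and EF replicates 1 to 4 had 3.01, 5.48, 4.36 and 6.00.

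**Figure D3:**
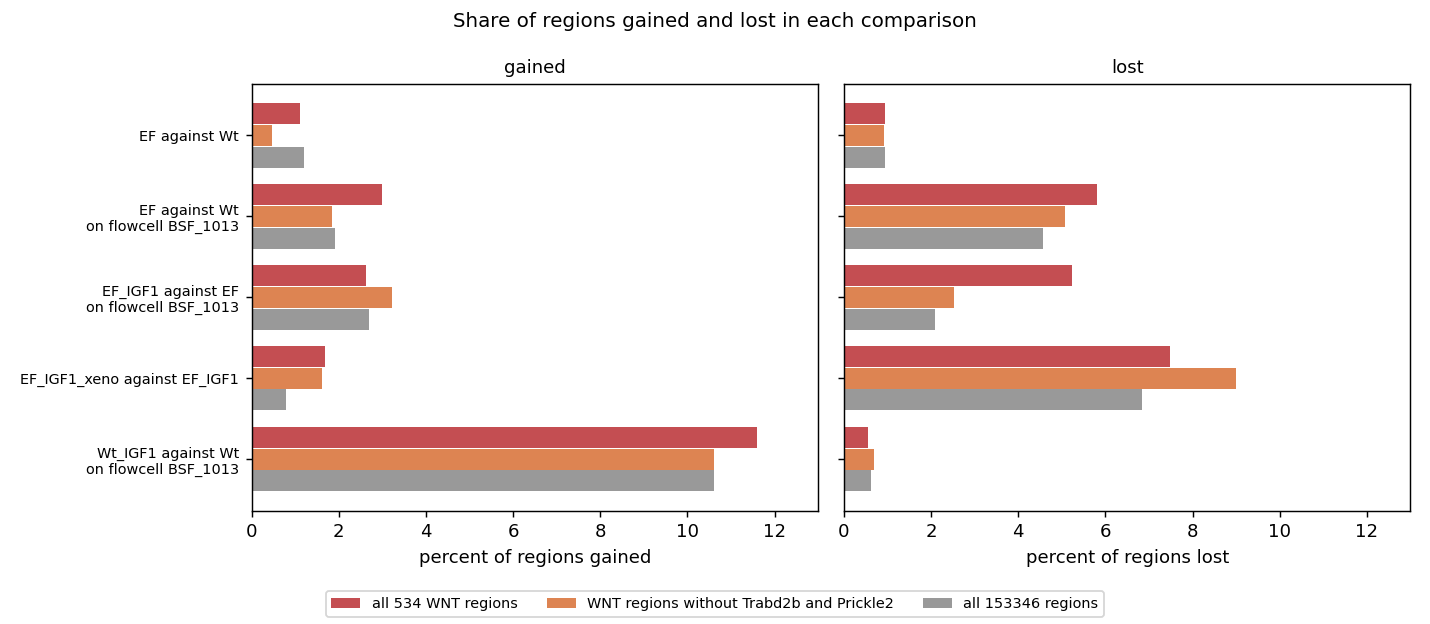
Percent of regions gained (left) and lost (right) in each comparison (rows), for all 534 WNT regions, for the 434 without Trabd2b and Prickle2, and for all 153346 regions. In EF_IGF1 against EF the lost share is 5.24% of the WNT regions, 2.53% without these genes and 2.08% of all regions.

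The comparison of EF_IGF1 with EF on flowcell BSF_1013, 2 libraries each, asks what differs with IGF1 in EF cells; it uses the same EF libraries as the comparison above. There were 14 gained WNT regions (2.62% of 534, against 2.7% of all regions) and 28 lost ones (5.24%, against 2.08% of all). Of the 28, 9 lay at Trabd2b and 8 at Prickle2, and 11 of 434 were lost without these genes (2.53%). The other lost regions were 2 at Wnt10a, 2 at Sfrp1, and 1 each at Wnt3a, Wnt4, Wnt5b, Rspo2, Rspo3, Fzd9 and Lrp6. The gained regions were at 8 ligands (Wnt5a, Wnt5b, Wnt6, Wnt7a, Wnt7b, Wnt10a, Wnt11 and Wnt16, 1 each), at the receptors Fzd2 (2), Fzd6, Lgr4 and Lrp5, and at the agonist Rspo1. No region was gained at an antagonist, whereas 11 of 152 were lost there, 9 at Trabd2b and 2 at Sfrp1. The antagonist count thus rests mainly on Trabd2b, a gene put in the rule because of earlier results of these data. With 2 libraries a group the counts carry no test. With the 20000 highest peaks of each list they were 1 gained and 4 lost, and no share over all regions was computed there. The line labels did not order these libraries: of the regions of EF_IGF1 replicate 1, labelled S_220, 54.7% were called in EF replicate 3 (S_220) and 80.6% in EF replicate 4 (S_221), which has the longer list. For EF_IGF1 replicate 2, labelled S_221, the shares were 54.1% and 79.6%.

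Trabd2b had 0, 6, 23 and 18 regions called in Wt replicates 1 to 4, 33 in Wt_IGF1, 15, 14, 22 and 39 in EF, 7 and 10 in EF_IGF1 and 9 in EF_IGF1_xeno. The 3 libraries of EF with IGF1 lay below every EF library, although EF replicate 2 had fewer called regions in all than any of them. The lost ones include the region at chr4:114515208-114515860 described above. Next to the gene's lower end, chr4:114405563-114406482 was called in 10 libraries, all but Wt replicate 1 and EF_IGF1 replicate 1, with folds of 6.25 to 12.7, so calls at this end did not follow the groups.

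Prickle2 had 0, 1, 17 and 24 regions in Wt, 26 in Wt_IGF1, 16, 5, 20 and 14 in EF, 8 and 0 in EF_IGF1 and 1 in EF_IGF1_xeno. Only EF_IGF1 replicate 1 and EF replicate 2, with the shortest EF list, overlapped. The lost region with the highest −log10 p (68.0) was the start printed above, chr6:92706027-92706551.

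**Figure D4:**
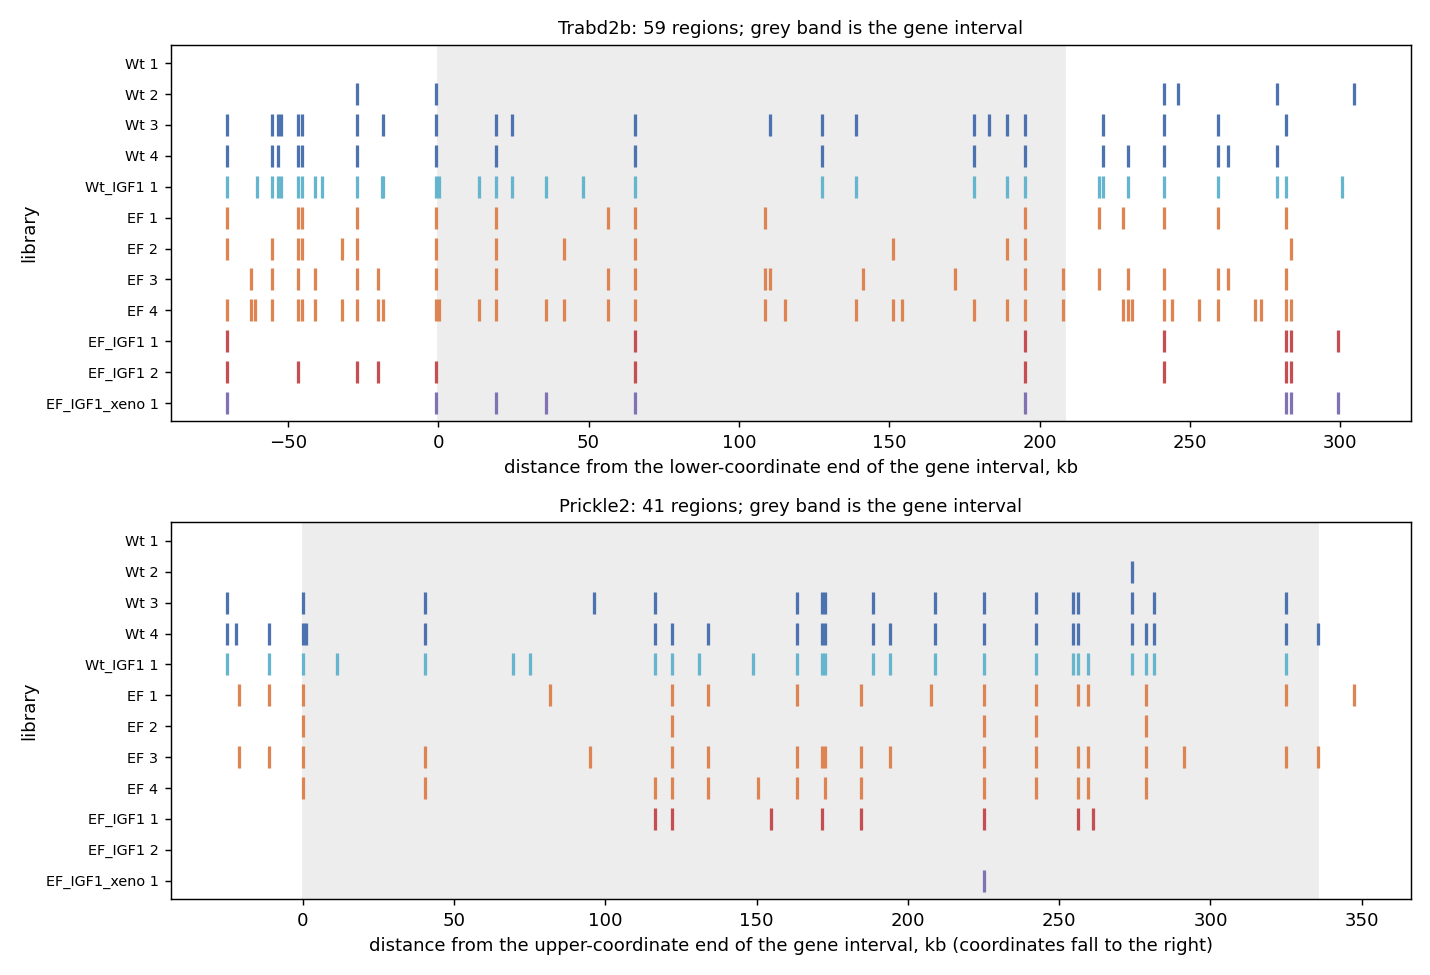
Position of each called region (tick, at its centre) at Trabd2b and Prickle2 in each library (rows), in kb from 1 end of the gene interval, which is the grey band. EF_IGF1 and EF_IGF1_xeno have 7 to 10 ticks at Trabd2b and 0 to 8 at Prickle2, EF 14 to 39 and 5 to 20, and Wt replicates 1 and 2 have 0 and 6 at Trabd2b and 0 and 1 at Prickle2.

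Sfrp1, a secreted WNT-binding protein, had 0, 0, 12 and 11 regions in Wt, 14 in Wt_IGF1, 6, 1, 7 and 8 in EF, 2 and 4 in EF_IGF1 and 2 in EF_IGF1_xeno. Its region over the lower gene end, chr8:23411178-23411875, had folds of 10.4, 12.2 and 9.60 in Wt replicates 3 and 4 and Wt_IGF1 and of 9.81, 12.8 and 11.5 in EF replicates 1, 3 and 4, and was called in no library of EF with IGF1. EF replicate 2 did not have it either. Sfrp2, its relative, had 0, 3, 7 and 8 regions in Wt, 7 in Wt_IGF1, 2, 1, 4 and 3 in EF, 1 and 2 in EF_IGF1 and 1 in EF_IGF1_xeno. The EF values were all below those of Wt replicates 3 and 4. Dkk3, a divergent member of its family, did not share this pattern: 10 and 11 regions in Wt replicates 3 and 4, 5, 4, 5 and 11 in EF, 7 and 10 in EF_IGF1 and 4 in EF_IGF1_xeno.

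The regions already called in both EF libraries of flowcell BSF_1013 were also looked up in the other libraries. This count does not ask for absence elsewhere, but its regions were chosen by their calls in EF. It uses the same libraries as the lost counts above and is not separate support for them. EF_IGF1 replicates 1 and 2 had 84.1% and 87.8% of all 35215 such regions called, and EF_IGF1_xeno 72.4%. For the 44 ligand regions these shares were 81.8%, 84.1% and 70.5%, and for the 30 receptor regions 80%, 93.3% and 76.7%. For the 25 antagonist regions they were 36%, 56% and 32%. In Wt replicates 3 and 4 and Wt_IGF1 the antagonist shares were 68%, 72% and 76%, also below those of all regions there but above the values of EF with IGF1. The 25 antagonist regions included 17 at Trabd2b, of which 4, 8 and 5 were called in EF_IGF1 replicates 1 and 2 and EF_IGF1_xeno. In the same order, 3, 4 and 1 of 4 regions at Dkk3 were called. At Sfrp1 it was 1 of 3 and at Sfrp2 1 of 1 in each of these libraries. Of 12 regions at Prickle2, 4, 0 and 1 were called. The 92 WNT regions outside Trabd2b and Prickle2 had 79.3%, 85.9% and 70.7%, close to all regions.

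**Figure D5:**
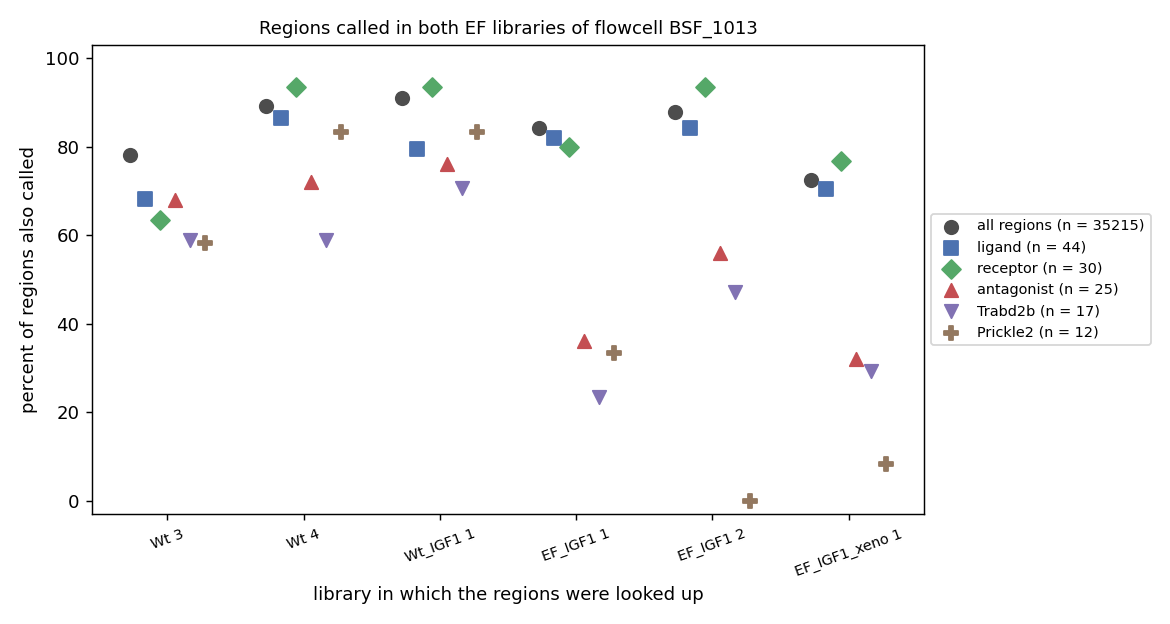
Regions called in both EF libraries of flowcell BSF_1013: percent also called (y axis) in each other library of that flowcell (x axis), by role or gene. Antagonist, Trabd2b and Prickle2 points lie at 0% to 56% in the EF_IGF1 and EF_IGF1_xeno libraries, where ligand, receptor and all regions lie at 70.5% to 93.3%. The 25 antagonist regions include the 17 at Trabd2b.

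Among ligands, Wnt7a had 0, 0, 3 and 0 regions in Wt, 5 in Wt_IGF1, 0, 1, 0 and 4 in EF, 9 and 4 in EF_IGF1 and 6 in EF_IGF1_xeno. Its gained region inside the gene, chr6:91400297-91400984, had folds of 5.26 and 6.15 in EF_IGF1 and 6.88 in EF_IGF1_xeno and was called nowhere else. Wnt7b, with 23 regions the ligand with most, had 1, 7, 10 and 14 in Wt, 12 in Wt_IGF1, 7, 7, 6 and 17 in EF, 16 and 15 in EF_IGF1 and 16 in EF_IGF1_xeno. EF replicate 4, of line S_221, already had as many as the libraries with IGF1. The gained region beside Wnt7b, chr15:85530554-85531141, was likewise called only in EF_IGF1 (6.52 and 4.01) and EF_IGF1_xeno (4.03).

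Regions near Wnt16 and Wnt11 were called in Wt and in EF_IGF1 but in no EF library. The one near Wnt16, chr6:22277910-22278324, had folds of 5.18 and 8.45 in Wt replicates 3 and 4, 6.08 in Wt_IGF1, 8.07 and 4.55 in EF_IGF1 and 7.40 in EF_IGF1_xeno. The one near Wnt11, chr7:98783876-98784484, had 13.8 and 8.94 in Wt, 10.4 in Wt_IGF1 and 4.93 and 5.78 in EF_IGF1. Wnt5b, which encodes a relative of Wnt5a, had 7, 6 and 8 regions in Wt replicates 2 to 4, 9 in Wt_IGF1, 11, 3, 10 and 11 in EF, 8 and 12 in EF_IGF1 and 7 in EF_IGF1_xeno, with no order by group. Wnt5a itself had 2, 5 and 4 in Wt replicates 3 and 4 and Wt_IGF1, 4, 0, 4 and 4 in EF, 4 and 5 in EF_IGF1 and 2 in EF_IGF1_xeno, again overlapping.

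Among agonists and receptors, the gained region with the highest −log10 p (55.5) lay 12245 bp from Rspo1, chr4:124973212-124974156, with folds of 8.79 and 13 in EF_IGF1 and 6.86 in EF_IGF1_xeno and no call elsewhere. Rspo3 had 2 and 9 regions in Wt replicates 3 and 4, 9 in Wt_IGF1, 7, 0, 3 and 2 in EF, 2 and 1 in EF_IGF1 and 0 in EF_IGF1_xeno. Fzd2 had 0, 1, 3 and 5 in Wt, 3 in Wt_IGF1, 2, 1, 3 and 5 in EF, 8 and 6 in EF_IGF1 and 6 in EF_IGF1_xeno. Its 3 libraries of EF with IGF1 lay above all 9 others. The co-receptors and Lgr4 showed no such order: Lrp5 had 5, 1, 6 and 8 in EF and 8, 10 and 6 in EF_IGF1 and EF_IGF1_xeno, Lrp6 10, 3, 8 and 9 against 6, 7 and 6, and Lgr4 4, 2, 4 and 2 against 3, 5 and 2. Fzd4 had 3, 1, 3 and 4 in EF and 4, 4 and 3 in these libraries, and Axin2 4, 2, 5 and 3 against 4, 6 and 3, with 1, 4, 8 and 9 in Wt replicates 1 to 4.

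EF_IGF1_xeno is a single library of line S_221, set against both EF_IGF1 libraries. There were 9 gained WNT regions (1.69% of 534, against 0.794% of all regions) and 40 lost ones (7.49%, against 6.83%). Its list is the shorter, and there is no replicate check with 1 library. The 20000 highest peaks of each list gave 8 gained and 3 lost, the other balance, with no share over all regions computed. Without Trabd2b and Prickle2, 7 were gained (1.61%) and 39 lost (8.99%). The gained regions were 2 each at Trabd2b, Wnt7b and Wnt10a and 1 each at Rspo2, Lrp5 and Dkk3. The lost ones lay at 23 genes, with 4 each at Rspo2 and Dkk3, 3 each at Wnt4, Wnt11 and Lrp5, 2 each at Wnt5a, Wnt8b, Wnt9b, Rspo4 and Fzd6, and 1 each at Wnt3, Wnt3a, Wnt7b, Rspo3, Fzd2, Fzd4, Fzd5, Lgr4, Sfrp1, Sfrp4, Sfrp5, Trabd2b and Axin2. By role, 15 were at ligands, 7 at agonists, 9 at receptors, 8 at antagonists and 1 at Axin2.

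The region gained near Wnt10a, chr1:74808048-74808676, had been lost with IGF1: its folds were 6.13, 9.71 and 9.51 in Wt replicates 2 to 4, 10.3 in Wt_IGF1, 8.84, 12.4 and 9.17 in EF replicates 1, 3 and 4, and 5.47 in EF_IGF1_xeno. Inside Rspo2, chr15:43167616-43168017 had 8.71 and 6.75 in Wt replicates 3 and 4, 8.49 in Wt_IGF1, 7.10 and 6.58 in EF replicates 3 and 4 and 3.54 in EF_IGF1_xeno. Neither was called in EF_IGF1. Of the lost regions, chr7:112155160-112155660 inside Dkk3 had the highest −log10 p (39.2), with folds of 4.69 and 12.9 in EF_IGF1, and chr4:137242508-137242962 near Wnt4 had 11.7 and 7.09.

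Wt_IGF1, also a single library and the one with most called regions, was set against Wt replicates 3 and 4. Gained regions numbered 62 (11.6% of 534, against 10.6% of all) and lost ones 3 (0.562%, against 0.624%), shares near the background. With the 20000 highest peaks of each list the gained and lost counts were 4 and 6, with no share over all regions computed. Without Trabd2b and Prickle2, 46 were gained (10.6%) and 3 lost (0.691%). Gained regions lay at 25 genes, led by Trabd2b (10), Dkk2 (7) and Prickle2 (6), with 3 each at Wnt3a, Wnt5b, Rspo3, Sfrp1 and Lrp6, 2 each at Wnt7a, Wnt7b, Wnt8b, Rspo2, Fzd6, Fzd7 and Lrp5, and 1 each at Wnt1, Wnt2, Wnt5a, Wnt11, Rspo1, Rspo4, Fzd1, Sfrp4, Dkk3 and Axin2. The 3 lost regions were at Fzd7, Lrp6 and Axin2. Of the 38 antagonist regions called in both Wt libraries, all 38 were called in Wt_IGF1, as were 15 of 15 at Trabd2b and 16 of 16 at Prickle2, but so were 97.8% of all 44005 such regions. EF replicates 3 and 4 had 20 (52.6%) and 23 (60.5%) of the 38 called, against 66.6% and 77.9% of all. EF_IGF1 replicates 1 and 2 had 12 (31.6%) and 16 (42.1%), against 68.2% and 75.4% of all. Of the 15 at Trabd2b, EF replicates 3 and 4 had 9 and 12 called, and EF_IGF1 replicates 1 and 2 had 4 and 7.

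Members with few regions were Dkk4 and Fzd10, with 1 region each, called in EF_IGF1 replicate 1 and in EF_IGF1 replicate 2, and Wnt3, Fzd3, Fzd8 and Fzd9 with 2 each. Dkk2, with 26 regions, had 13 called in Wt replicate 2 and 13 in Wt_IGF1, 5 and 8 in Wt replicates 3 and 4, and 0 to 6 in the EF, EF_IGF1 and EF_IGF1_xeno libraries. The ligands Wnt1, Wnt2, Wnt2b, Wnt8a and Wnt10b had 3 to 4 regions, Sfrp4 and Sfrp5 had 4 each, and the genes not described singly had between 4 (Wnt16) and 18 (Rspo2).

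Another 56 genes of the WNT pathway, among them secretion factors, further antagonists, polarity genes and the beta-catenin complex, held 705 regions. In EF against Wt, 4 of these were gained and 4 lost (0.567% each, against 1.19% and 0.938% of all regions), at Apc, Daam1, Ror1 and Vangl1 and at Ctnnb1, Ctnnbip1, Gsk3b and Tcf7l2. On flowcell BSF_1013 the counts were 13 gained (1.84%, against 1.91%) and 41 lost (5.82%, against 4.57%). With IGF1 in EF, 20 were gained (2.84%, against 2.7%) and 24 lost (3.40%, against 2.08%). The gained share was near that of all regions. The gained ones included 5 of 20 regions at Celsr1, a polarity cadherin, 4 of 48 at Tle3, a co-repressor, and 3 of 17 at Nkd1, a feedback inhibitor. The lost ones included 2 of 12 regions at Daam2, 2 of 25 at Lgr6, and 2 of 27 each at Ror2 and Tcf7l1. The remaining lost ones were single regions of a gene. In EF_IGF1_xeno 4 were gained (0.567%, against 0.794% of all) and 57 lost (8.09%, against 6.83%). In Wt_IGF1 68 were gained (9.65%, against 10.6%) and 7 lost (0.993%, against 0.624%).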

How the data were processed

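ATAC-seq libraries (50 bp single-end reads, transposase TDE1 with digitonin, per the labels' protocols) were grouped by their genotype label. Per the submitters' processing notes, the build was GRCm38.p3 and MACS2 was used, without a version; the sources used here do not give the aligner, read filters, any transposase shift or caller options. Peaks were called per library, and each deposited list holds positions, a score, a ratio (the fold above local background) and −log10 values of the p-value and q-value, all the authors' own. They served here for description, ranking and filtering alone. Lowest −log10 q values were 2.03 to 2.60. Depth is unknown, and the number of called regions stands in for it.

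Peaks of chromosomes 1 to 19 and X were merged at an overlap of 1 bp, leaving out 23 to 43 peaks per library on other sequences. Each region went to the nearest of 21631 protein-coding genes (RefSeq, GRCm38.p6; p3 and p6 share chromosome coordinates) within 100 kb. Python 3.11.15, pandas 2.3.3, numpy 2.4.6, scipy 1.17.1 and matplotlib 3.10.9 were used, and the test across genes was tested on simulated data. Members, lists and tests were chosen with earlier results of these data known. Named were all members with a gained or lost region and a fixed set of members, with coordinates for the region of highest −log10 p in a direction; the region beside the lower end of Trabd2b, the distant region of Axin2 and the choice of which named regions to give library by library were made after their values were seen. Alternatives were a −log10 q of 5 or more, summit windows of 250 bp each side, 10 kb, tied genes, the top 20000 peaks, left-out libraries, flowcells and lines.

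EF and EF_IGF1 libraries share line names, which pairs them by label. Over all regions, the difference between lines S_220 and S_221 correlated at 0.0146 between EF and EF_IGF1, and at 0.3 between the EF libraries of the 2 flowcells.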

Additional observations from a re-analysis of the deposited data

Results flagged for a closer look

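On a per 10000 basis, some values moved one way with IGF1 in both EF lines and the other way in the Wt line BM (Wt replicate 3 to Wt_IGF1); the difference was not tested. For ligand regions the changes were 4.43 in the library labelled line S_220, 0.717 in S_221 and -0.138 in BM. Lrp5 gave 0.228, 0.418 and -0.101, Wnt4 gave 0.405, 0.11 and -0.419, and Fzd2 gave 0.823, 0.22 and -0.176. In the other direction Prickle2 gave -2.55, -2.16 and 0.133, Lrp6 gave -0.523, -0.231 and 0.587, and Rspo3 gave -0.241, -0.143 and 0.763. These values are divided by list length, and the list of BM grew from 54203 to 79524 called regions. Unscaled, the BM counts rose from 58 to 84 for ligands and from 6 to 8 for Lrp5, and stayed at 3 for Fzd2. Wnt4 stayed at 10 in S_221. Unscaled counts of Prickle2, Lrp6 and Rspo3 fell in both EF lines and rose in BM, and Wnt4 fell in BM from 5 to 4. Each line has 1 library per condition.

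Some libraries lay far from the other 3 of their group, a flag whose chance rate is not known for such small counts. In EF these were Lgr4 in replicate 4 (0.308 per 10000), Fzd4 in replicate 2 (0.391) and Dkk1 in replicate 3 (0.198, the others at 0). In Wt they were Wnt3 in replicate 4 (0.149), Wnt7a in replicate 3 (0.553), and Wnt9a and Wnt5b in replicate 1, both at 0. Wt replicate 1 is the library with the shortest list. For Dkk1 in EF and for Wnt3 and Wnt7a in Wt the other 3 values were 0, and any called region then raises the flag.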

How the results depend on the processing

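Of 196 recomputed values, 117 counted as the same, 61 moved, 18 (all of Wnt3, Wnt4 and Wnt9a, left-out libraries and within flowcell) lost an unadjusted p under 0.05, and 0 reversed. The same meant within 1.5 times for counts, and the same direction and side of the threshold for single genes. For ligand and antagonist differences it meant a change below the SD between libraries of a group. For the adjusted tests it meant 0 passing, which the few libraries all but fixed. The cause of the moves was not tested. Shares over all regions were computed only for Wt of BSF_1013 alone and for BSF_0654 alone. The other WNT region counts here and below cannot be set against a background. With the top 20000 peaks of each list, EF against Wt gave 0 lost, flowcell BSF_1013 gave 6 gained and 11 lost, EF_IGF1 against EF 1 gained and 4 lost (3 at Trabd2b, 1 at Prickle2), EF_IGF1_xeno 8 gained and 3 lost, and Wt_IGF1 4 gained and 6 lost. The ligand difference, EF_IGF1 minus EF per 10000, was 0.0377 with these peaks (2.57 with all), and the antagonist difference -2.75 (-4.43 with all). Within 10 kb of a gene, 342 WNT regions remained by the rule, 18 were lost on BSF_1013, 4 were lost at Trabd2b with IGF1, and the antagonist difference was -2.06. A −log10 q of 5 or more left 3 lost in EF against Wt, Wt of BSF_1013 alone gave 30 lost, and BSF_0654 alone 26 gained and 0 lost.

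Leaving out 1 library, with at least 3 calls against 0 still required, EF against Wt gave 0 to 23 gained (0 without EF replicate 1, 3 or 4, 23 without Wt replicate 4) and 0 to 7 lost (0 without Wt replicate 2, 3 or 4). The other comparisons needed all remaining libraries of one group and 0 of the other. BSF_1013 gave 17 to 78 gained (78 without EF replicate 3) and 44 to 80 lost (80 without Wt replicate 3), EF_IGF1 against EF 19 to 71 gained and 34 to 75 lost (both highest without EF replicate 4), EF_IGF1_xeno 20 gained without either reference and 75 to 80 lost, and Wt_IGF1 96 to 110 gained and 14 to 61 lost (61 without Wt replicate 3). Trabd2b lost 9 to 29 and Prickle2 8 to 15 regions with IGF1. The ligand difference ran from 1.11 to 4.03 and the antagonist difference from -5.58 to -3.29.

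With the line as replicate block, 1 library against 1, S_221 gave 45 gained and 90 lost WNT regions and S_220 gave 108 and 93. No share over all regions was computed for these counts. The ligand difference was 0.717 in S_221 and 4.43 in S_220, and the antagonist difference -5.67 and -3.19. Counts of 2 against 2 calls carry no test under either pairing.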
